A study of Mus musculus with 7 samples.

Results

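Translation initiation factors and elongation factors were followed in muscle fibers of WT and dyW fetuses. The set holds every gene in the deposited table whose symbol begins with Eif1 to Eif6, Eef1 or Eef2, without the eIF2 kinases (symbols beginning with Eif2ak) and without symbols containing -ps. This gave 63 of 31531 genes, and 7 symbols were left out by these exceptions. RNA was sequenced from fibers of the epaxial (back) muscles of fetuses at embryonic day 17.5, with 4 WT (wt) and 3 homozygous dyW/dyW fetuses and 1 library per fetus. The dyW allele disrupts *Lama2*, which encodes the α2 chain of laminin in the muscle basement membrane, and homozygotes serve as a model of LAMA2-CMD, a congenital muscular dystrophy. All fetuses came from crosses of heterozygous dyW C57BL/6 mice, and the allele is a germline change present in every tissue. The fibers were the material retained on a strainer after enzymatic digestion, so other cells of the muscle could remain with them.

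Translation of most mRNAs starts when eIF4E binds the cap and joins the scaffold eIF4G and the helicase eIF4A in the complex eIF4F. The small ribosomal subunit, carrying eIF1, eIF1A, eIF3 and the initiator tRNA held by eIF2, then scans to a start codon, where eIF5 triggers GTP hydrolysis by eIF2 and eIF5B joins the large subunit. During elongation eEF1A delivers aminoacyl-tRNAs and eEF2 moves the ribosome by a codon. In mature skeletal muscle the isoform *Eef1a2* takes over from *Eef1a1* after birth.

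Before the members, the libraries themselves were compared. Reads on genes numbered from 470804 to 2220813 in WT and from 3663905 to 18297106 in dyW, without overlap, so 1 read was worth between 2.05 and 5.33 normalized counts in WT and between 0.0974 and 0.488 in dyW. *Lama2* had a normalized count of 90.6 to 110.6 in the 4 WT libraries, 4.29 in dyW1 and 6.07 in dyW2, but 139.7 in the remaining dyW library, which therefore went against its label and is called the library labelled dyW3 throughout. The 8 myofiber markers summed to between 2484 and 67705 normalized counts in WT and between 54.1 and 7063 in dyW; the sum of 54.1 belonged to dyW1, in which 4 of the 8 were at 0. The myofiber sums overlapped between the groups. The 6 fibroblast markers summed to 4116 to 12484 in WT and to 20348 to 28134 in dyW, and these sums did not overlap, but of the 6 genes only *Col1a2* and *Pdgfra* were without overlap. In dyW1 *Col1a1* (8467) and *Col1a2* (12046) made up most of the sum, and *Col3a1*, at 232.1, was below every WT library. The log2 fold change of *Lama2* was -2.58 over all 7 libraries (adjusted *P*-value = 0.103, limma) and -4.09 without the library labelled dyW3 (adjusted *P*-value = 0.00202, limma). In WT1 the cartilage collagen *Col2a1* took 16.6% of all counts, and erythroid markers were nearly absent from WT1 and dyW1. A lower level can reflect fewer cells of a type or less RNA per cell, which cannot be told apart in bulk samples. The part of sequencing depth and of cell composition in the differences described here was not tested.

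The start codons of the main members are shown first, because the initiation factors act there and because the member with the largest increase does not begin at ATG. The sequences are from GENCODE mouse release 39 on GRCm39, each with 12 bases of leader, the annotated start codon in capitals and 9 bases of coding sequence, read 5′ to 3′ along the mRNA.
Eif4g2, chr7:110680743-110680766, minus strand: caagccgccaaaGTGgagagtgcg
Eif4g3, chr4:137720812-137720835, plus strand: tctgctcgttgaGTGaagaaaatc
Eif4g1, chr16:20492640-20492663, plus strand: gcaccaaatgaaATGaacaaagct
Eif4a2, chr16:22926530-22926553, plus strand: ggttttcggatcATGtctggtggc
Eif4a1, chr11:69563116-69563139, minus strand: attctaaggatcATGtctgcgagt
Eif4e, chr3:138233046-138233069, plus strand: gatcgatctaagATGgcgactgtg
Eif4b, chr15:101982374-101982397, plus strand: ccctctcccaacATGgcggcctca
Eef1a1, chr9:78387925-78387948, minus strand: ttcaaagcaaaaATGggaaaggaa
Eef1a2, chr2:180797188-180797211, minus strand: cacccaggcagaATGggcaaggag

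Of the 62 members with an annotated coding sequence, 60 begin at ATG and 2, *Eif4g2* and *Eif4g3*, at GTG. Among the canonical transcripts of all protein-coding genes, 8 of 21711 (0.0368%) begin at GTG. A purine stands 3 bases before the start codon in 54 of the 62 members (87.1%) and in 85.3% of all transcripts with that base, and a purine there together with a G directly after the codon in 51.6% and 42.1%. These shares describe the sequence and say nothing about how often a start codon is used.

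The members were then compared between the groups on log2(normalized count + 1), with positive differences meaning higher in dyW. Of the 63 members, 60 reached the mean normalized count of 5 needed for testing, and *Eif3j2*, *Eif4e1b* and *Eif2c5* did not. *Eif2c5* entered by its symbol alone and is annotated as a long noncoding RNA in GENCODE. At an adjusted *P*-value under 0.05, 4 of the 60 were higher in dyW, *Eif4g2*, *Eif4a2*, *Eif4e* and *Eif4b*, and 1 was lower, *Eef1a2*, which reached the minimum mean only through WT and was not above the level of silent genes there, as described with its values. Over all 25791 genes tested, 1.01% were higher and 29.6% lower by this rule. With the stricter rule of an adjusted *P*-value under 0.01 and a log2 fold change beyond 1.5 in either direction, only *Eif4g2* was called higher and 0 members were called lower, where 0.0659% and 18.7% of all genes were. By limma, 2 members were lower and 9 higher at an unadjusted *P*-value under 0.05, beside 10707 and 726 of the 25791 genes. In 8 members every dyW library was above every WT library (3.28% of all tested genes), and in 3 members every WT library was above every dyW library (31.5%). With a minimum mean of 50, after quantile normalization or after subtracting the level of receptor genes taken as silent in muscle, 0 members were higher at an adjusted *P*-value under 0.05 by limma. At an unadjusted one, 10 of 46, 5 of 60 and 13 of 58 tested members were higher, beside 717 of 6111, 2216 of 25791 and 1847 of 18622 of all genes. The counts also depended on single libraries. Without the library labelled dyW3, 9 members were higher at an adjusted *P*-value under 0.05, the 4 above with *Eif5*, *Eif3a*, *Eif3j1*, *Eif2b1* and *Eif2s2*, and 2 were lower, *Eef1a2* and *Eif2d*. In that fit 381 of all 25971 genes were higher and 10741 lower. Without WT1, WT2, WT4 or dyW2, 2 were higher, *Eif4g2* and *Eif4a2*, beside 194 of 24804, 78 of 24157, 78 of 24289 and 236 of 27068 genes. Members with every dyW library above every WT library numbered 21 without dyW1, 15 without WT3 and 13 without the library labelled dyW3, and those with every WT library above every dyW library numbered 7 without dyW2. With fewer libraries the groups separate more easily in any gene. The share of all genes was not counted for these settings, so nothing about the members is read from these numbers.

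**Figure D1:**
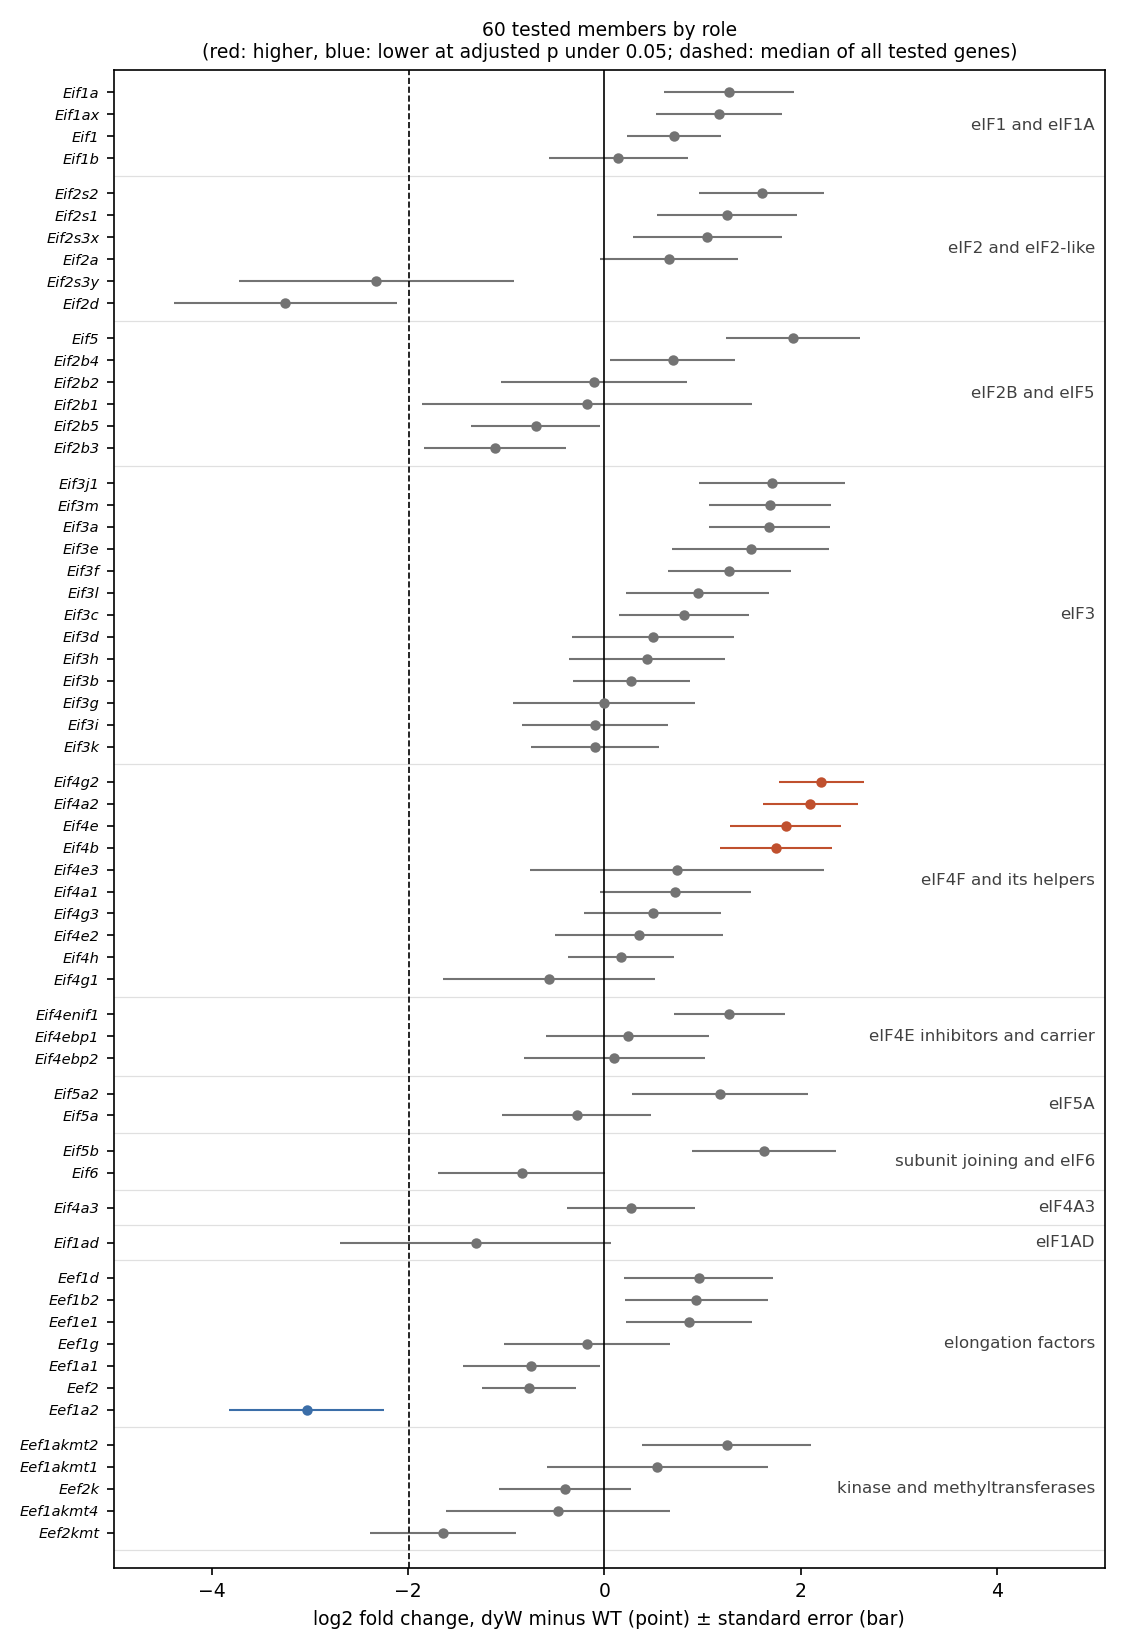
Log2 fold change (dyW minus WT, horizontal axis) with its standard error for the 60 tested members, grouped by role, from 4 WT and 3 dyW libraries. The 4 members higher in dyW (red) all belong to the list of eIF4F and its helpers, which is wider than the complex. The 1 lower member (blue) is *Eef1a2*, which was not above the level of silent genes in WT, and the dashed line marks the median of all tested genes at -1.99.

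The fold changes of the members lay above those of most genes on the deposited scale. Their median log2 fold change was 0.52, with 40 positive and 20 negative values, against a median of -1.99 over all tested genes. That distance was smaller among abundant genes. In the 6111 genes averaging 50 or more normalized counts the median was 0.20, with 4.01% higher and 5.09% lower at an adjusted *P*-value under 0.05, and among the 46 members at that level the median was 0.68, with 4 higher and 0 lower. These calls are from the fit over all 25791 genes. When the fit and the adjustment were made over the 6111 genes alone, 0 were higher and 3 lower, and 0 of the 46 members passed. At an unadjusted *P*-value under 0.05 (limma), 10 of the 46 members and 717 of the 6111 genes were higher in that fit. In these abundant genes every dyW library was above every WT library in 12.2% of genes and in 17.4% of the members. The median of all genes also moved with the scaling, to -0.98 when libraries were set to the same total and to 0.06 after quantile normalization, so each fold change is to be read against it.

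The 4 raised members all belong to the list of eIF4F and its helpers. This list is wider than the complex, since it also holds relatives such as *Eif4g2*, and the main scaffold *Eif4g1* did not pass (log2 fold change -0.57, adjusted *P*-value = 0.717, limma). Of its 11 genes, 10 were tested, 9 had a positive fold change and 4 were higher at an adjusted *P*-value under 0.05, where 1.01% of all tested genes and 4.01% of those averaging 50 or more normalized counts were in the same fit.

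*Eif4g2* encodes a relative of eIF4G1 that lacks the eIF4E-binding region and serves initiation that does not depend on eIF4E. It lies at chr7:110666957-110682244 on the minus strand. Its normalized counts were 330.5, 283.2, 412.3 and 261.2 in WT1 to WT4 and 2121 in dyW1, 1266 in dyW2 and 1189 in the library labelled dyW3. The lowest dyW library was well above the highest WT library. The log2 fold change was 2.21 with a standard error of 0.434 (adjusted *P*-value = 0.00542, limma), on group means of 321.8 ± 66.9 (SD, n = 4) and 1525 ± 517 (SD, n = 3). Behind these values were 62 to 201 reads per WT library and 2434 to 21764 per dyW library. Without the library labelled dyW3 the log2 fold change was 2.37 (adjusted *P*-value = 0.0113, limma), and without dyW1 it was 1.95 (adjusted *P*-value = 0.0228, limma). It did not pass an adjusted *P*-value of 0.05 with a minimum mean of 50 (2.21, adjusted *P*-value = 0.101, limma), after quantile normalization (1.85, 0.19) or after the subtraction (2.43, 0.078). With the replicate block it did not pass either.

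*Eif4a2*, 1 of the 2 cytoplasmic forms of the eIF4A helicase, lies at chr16:22925894-22932886 on the plus strand. It had 261.2, 172.6, 361.0 and 176.2 normalized counts in WT1 to WT4, then 1270 in dyW1, 727.0 in dyW2 and 1062 in the library labelled dyW3. Again the groups did not overlap, and the log2 fold change was 2.10 with a standard error of 0.484 (adjusted *P*-value = 0.0104, limma). Without the library labelled dyW3 it was 2.05 (adjusted *P*-value = 0.0284, limma), and without dyW1 1.92 (adjusted *P*-value = 0.0371, limma). It too did not pass with a minimum mean of 50 (2.10, adjusted *P*-value = 0.101, limma), after quantile normalization (1.51, 0.261) or after the subtraction (2.19, 0.0976). Nor did it pass with the replicate block. Small nucleolar RNA genes such as *Snora81* and *Snord2* lie within *Eif4a2* on the same strand, and *Rfc4* overlaps it on the other strand. Reads in these overlaps are uncertain, those shared with *Rfc4* only where counting did not use strand.

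*Eif4e*, the cap-binding protein itself, had 90.6, 89.0, 164.1 and 94.4 normalized counts in WT1 to WT4 and 335.5 in dyW1, 695.2 in dyW2 and 240.3 in the library labelled dyW3. Every dyW library was above the highest WT library, WT3, and the log2 fold change was 1.85 with a standard error of 0.569 (adjusted *P*-value = 0.0365, limma). *Eif4b*, which stimulates the helicase, had 48.0, 97.1, 61.5 and 94.4 in WT1 to WT4 against 231.6 in dyW1, 374.1 in dyW2 and 169.9 in the library labelled dyW3. Its log2 fold change was 1.75 with a standard error of 0.568 (adjusted *P*-value = 0.0449, limma). Both calls were close to the threshold. *Eif4e* no longer passed when WT1, WT2, WT4, dyW1 or dyW2 was left out (adjusted *P*-values of 0.0672, 0.10, 0.0948, 0.0581 and 0.114, limma), and among the fits without 1 library *Eif4b* passed only when the library labelled dyW3 was left out (0.0313, limma), the others giving 0.0705 to 0.124.

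**Figure D2:**
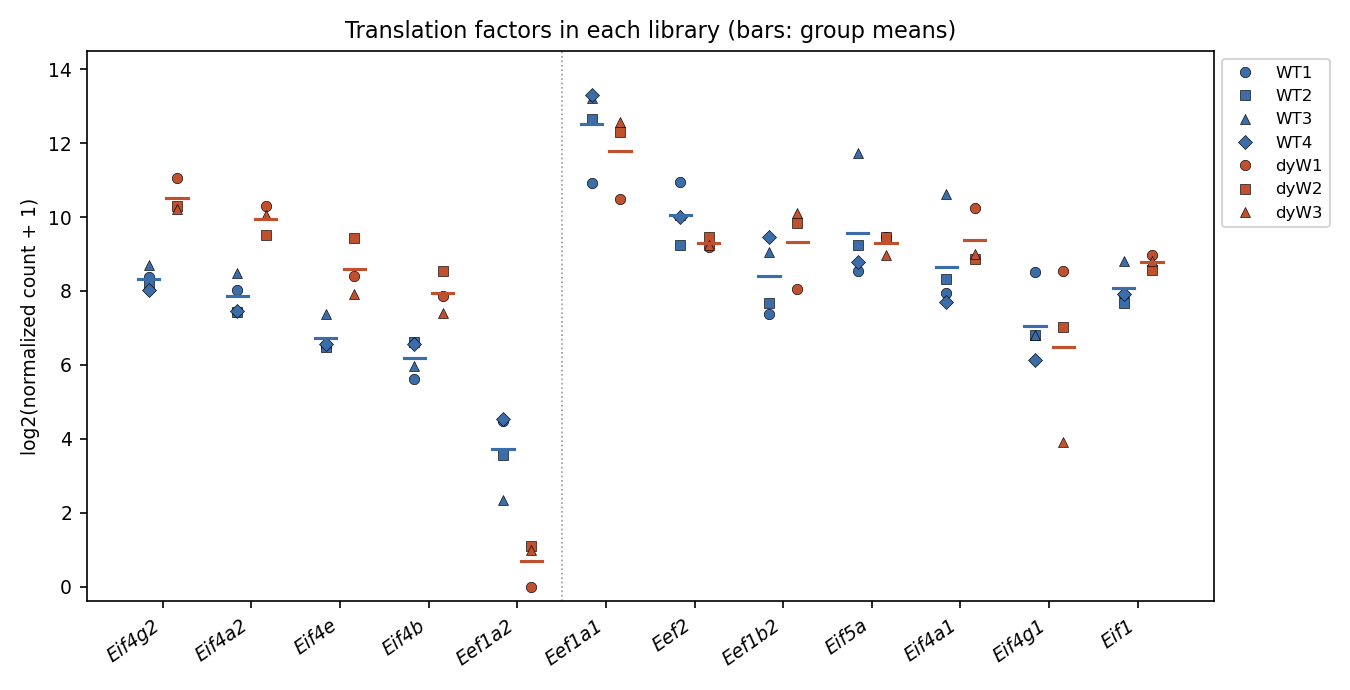
Log2(normalized count + 1) of 12 members in each of the 4 WT (blue) and 3 dyW (red) libraries, with a bar at each group mean. The 5 members left of the dotted line passed an adjusted *P*-value of 0.05, and their groups do not overlap, whereas the groups overlap in each of the 7 members to its right.

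The paralogs of the raised members gave other values. *Eif4g1*, the main eIF4G scaffold, had 362.5, 110.6, 110.8 and 69.2 normalized counts in WT and 371.9, 128.9 and 14.2 in dyW, the last in the library labelled dyW3. The values ran from low to high in both groups, and the log2 fold change was -0.57 with a standard error of 1.08 (adjusted *P*-value = 0.717, limma). *Eif4a1*, the other cytoplasmic eIF4A, had 245.2, 318.2, 1586 and 207.7 in WT and 1211, 465.5 and 513.3 in dyW, with 1 high WT library, WT3. Its log2 fold change was 0.72 (SE 0.767, adjusted *P*-value = 0.498, limma). Within each library, the ratio of *Eif4g2* to *Eif4g1* was 0.912 to 3.77 in WT and 5.70 to 83.9 in dyW, where 83.9 came from the library labelled dyW3 with 29 reads of *Eif4g1*. The ratio of *Eif4a2* to *Eif4a1* was 0.228 to 1.07 in WT and 1.05 to 2.07 in dyW. These ratios do not depend on how libraries are scaled, but the pairs were chosen with the values of the raised members known, so they are given without a test.

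**Figure D3:**
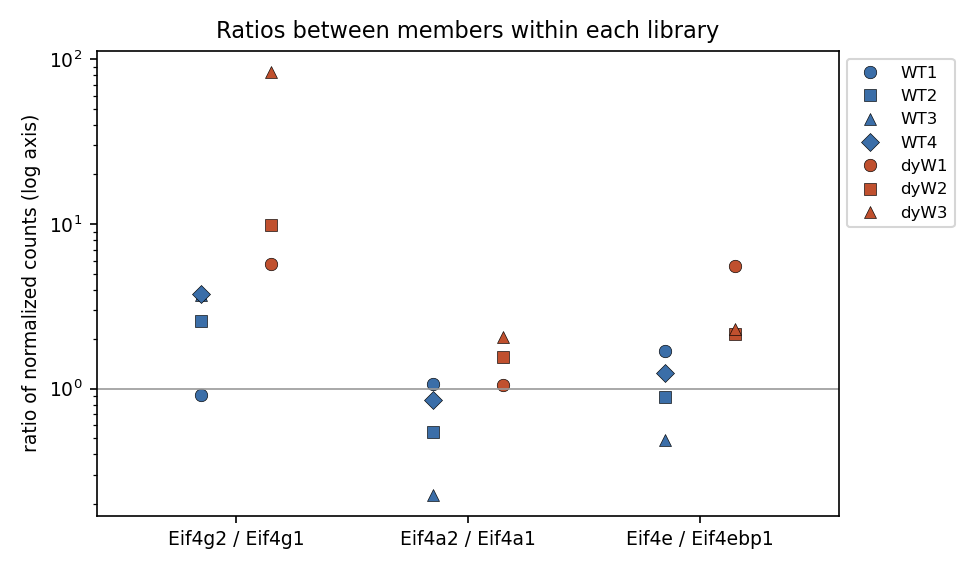
Ratio of normalized counts between 2 members within each library (log axis) for *Eif4g2* over *Eif4g1*, *Eif4a2* over *Eif4a1* and *Eif4e* over its inhibitor *Eif4ebp1*, with WT in blue and dyW in red. The ratios of *Eif4g2* and of *Eif4e* lie higher in the 3 dyW libraries than in the 4 WT libraries, and that of *Eif4a2* overlaps between 1.05 and 1.07.

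The inhibitors of eIF4E did not pass the test. *Eif4ebp1*, which blocks the joining of eIF4E and eIF4G until it is phosphorylated downstream of TOR, had 53.3, 99.8, 336.4 and 75.5 normalized counts in WT and 60.7, 324.0 and 104.5 in dyW, with almost the same span in both groups. Its log2 fold change was 0.24 (SE 0.833, adjusted *P*-value = 0.849, limma). *Eif4ebp2* ran from 14.4 to 96.0 in WT and from 14.8 to 127.3 in dyW (log2 fold change 0.10, adjusted *P*-value = 0.943, limma). *Eif4enif1*, which carries eIF4E into the nucleus, was between 41.0 and 106.6 in WT and between 123.6 and 185.1 in dyW without overlap, but its log2 fold change of 1.27 did not pass (adjusted *P*-value = 0.118, limma). The ratio of *Eif4e* to *Eif4ebp1* was 0.488 to 1.70 in WT and 2.15 to 5.53 in dyW.

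Among the factors that find the start codon, 0 of the 4 members of the eIF1 and eIF1A list passed the test. Their fold changes were between 0.14 for *Eif1b* and 1.27 for *Eif1a*, all positive, as were 55.7% of the genes averaging 50 or more, and after quantile normalization that of *Eif1* was -0.13. *Eif1*, which guards the choice of start codon, had 234.6, 204.9, 447.2 and 242.3 in WT and 499.0, 379.9 and 450.7 in dyW, so WT3 lay within the dyW range (log2 fold change 0.71, adjusted *P*-value = 0.284, limma).

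For eIF2, which carries the initiator tRNA, 0 of 6 listed genes passed. *Eif2s2*, its β subunit, had 96.0, 110.6, 180.5 and 69.2 normalized counts in WT and 258.7, 709.4 and 192.4 in dyW. The groups did not overlap, but the spread within dyW was wide and the log2 fold change of 1.60 had an adjusted *P*-value of 0.083 (limma). The γ subunit is encoded on both sex chromosomes. *Eif2s3x* had 10.7 to 24.3 in WT and 20.1 to 87.9 in dyW (log2 fold change 1.05, adjusted *P*-value = 0.319, limma). *Eif2s3y*, on the Y chromosome, had 6 reads in WT1, 10 in WT4, 1 in the library labelled dyW3 and 0 in the other 4 libraries. The Y-linked gene *Kdm5d* had 28, 5, 2 and 35 reads in WT1 to WT4, 0 in dyW1 and dyW2 and 4 in the library labelled dyW3. The level of the receptor genes taken as silent gives 21.1 reads over its transcript in WT2 and 14.9 in WT3, so it was not above that level there. *Ddx3y* had 36, 0, 0 and 12 in WT and *Uty* 10, 0, 1 and 13. *Xist*, made from the inactive X chromosome, was at 37.8 in WT4 and lower in WT1, at 124.0 and 297.4 in WT2 and WT3, and from 460.7 to 4132 in dyW. The sex of the fetuses is not in the labels. The dyW value of 87.9 in *Eif2s3x* came from the library labelled dyW3. The pooled WT reads of *Eif2s3x* were 0.991 times the level of olfactory and vomeronasal receptor genes, which are taken as silent in muscle, so the pooled WT libraries did not show it above that level. Those of *Eif2s3y* were 0.488 times that level. After the subtraction of the level, the log2 fold change of *Eif2s3x* was 4.34 (adjusted *P*-value = 0.107, limma).

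*Eif2d*, which delivers tRNA to the ribosome without the eIF2 cycle, had the most negative fold change of the set. It had 74.6, 59.3, 55.4 and 81.8 normalized counts in WT and 8.28, 0 and 38.1 in dyW, where the 0 in dyW2 allows at most 0.379 normalized counts (3 reads, counting error only). Every WT library was above every dyW library, and the log2 fold change of -3.25 (SE 1.14) had an adjusted *P*-value of 0.0591 (limma). Without the library labelled dyW3 it was -4.48 (adjusted *P*-value = 0.00559, limma), and without dyW2 it was -1.83 (adjusted *P*-value = 0.116, limma). The 14 to 27 reads per WT library make its WT level imprecise.

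Of eIF2B, the exchange factor that reloads eIF2 with GTP, and eIF5, 0 of 6 passed. *Eif5* had 143.9, 75.5, 318.0 and 88.1 in WT and 847.8, 585.2 and 258.8 in dyW. Only WT3 reached into the dyW range, and the log2 fold change was 1.92 with a standard error of 0.681 (adjusted *P*-value = 0.0612, limma). Without the library labelled dyW3 it was 2.40 (adjusted *P*-value = 0.0294, limma). *Eif2b3* was the lowest of this list, with 127.9, 124.0, 86.2 and 129.0 in WT and 23.5, 153.9 and 40.0 in dyW (log2 fold change -1.11, adjusted *P*-value = 0.268, limma).

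The eIF3 complex, the scaffold on the small subunit, had 13 of 14 genes tested, of which 10 had a positive fold change and 0 passed. The fold changes ran from -0.10 for *Eif3k* to 1.71 for *Eif3j1*. *Eif3j1* had 10.7, 27.0, 10.3 and 12.6 normalized counts in WT, from 2 to 10 reads each, and 78.7, 65.1 and 21.0 in dyW (adjusted *P*-value = 0.109, limma). Its pooled WT reads were 0.538 times the level of the receptor genes, so it was not detected above that level in WT. *Eif3k* had 112.0, 121.3, 264.6 and 129.0 in WT and 60.6, 182.5 and 232.0 in dyW (adjusted *P*-value = 0.922, limma). *Eif3a*, the largest subunit, was the only one of the complex in which every dyW library was above every WT library, at 113.3 to 197.3 in WT and 202.2 to 950.3 in dyW (log2 fold change 1.68, adjusted *P*-value = 0.0676, limma), and it is named because of that value.

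The remaining initiation factors showed wide spreads. *Eif5a*, the hypusine-bearing factor that helps ribosomes through difficult stretches such as runs of proline, had 373.2, 601.4, 3436 and 443.7 normalized counts in WT and 699.9, 704.8 and 504.9 in dyW. The high value in WT3 set the WT mean of 1214 ± 1485 (SD, n = 4) above the dyW mean of 636.6 ± 114 (SD, n = 3), and the log2 fold change was -0.28 (adjusted *P*-value = 0.80, limma). *Eif5b* was above the WT range in all 3 dyW libraries without passing the test (log2 fold change 1.63, adjusted *P*-value = 0.12, limma), and its partner in the list, *Eif6*, which keeps the subunits apart, had a value of -0.84 (adjusted *P*-value = 0.476, limma). Both are named after their values were seen.

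Of the 7 elongation factors, 3 had a positive and 4 a negative fold change. *Eef1a1* was the most abundant member per length in both group means, at 3915 normalized counts per kb of transcript in WT and 2319 in dyW. The order of the members below it was not the same in both groups. *Eef1a1* had 1925, 6426, 9551 and 10195 normalized counts in WT1 to WT4 and 1436 in dyW1, 5005 in dyW2 and 6037 in the library labelled dyW3. The lowest library of each group was the one in which erythroid markers were nearly absent. Its log2 fold change was -0.74 with a standard error of 0.697 (adjusted *P*-value = 0.441, limma), and it turned to 0.40 when libraries were set to the same total. *Eef2* had 1989, 609.4, 1054 and 1026 in WT and 584.9, 708.8 and 600.7 in dyW (log2 fold change -0.77, adjusted *P*-value = 0.25, limma), and it also turned positive, to 0.38, at the same total.

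The exchange factors that reload eEF1A with GTP had both signs. *Eef1b2* had 165.3, 202.3, 535.4 and 704.8 in WT and 266.3, 909.5 and 1096 in dyW (log2 fold change 0.94, adjusted *P*-value = 0.353, limma). *Eef1d* was at 0.96 (adjusted *P*-value = 0.361, limma) and *Eef1g* at -0.18 (adjusted *P*-value = 0.888, limma). WT3 had 1245 normalized counts of *Eef1g* against 154.6 to 302.1 in the other WT libraries. The fold change was 0.42 without WT3 and 0.57 without dyW1, so it had no stable sign.

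*Eef1a2*, the muscle and neuron form of eEF1A, was not above the level of silent genes in WT, although its difference had an adjusted *P*-value under 0.05. It had 21.3, 10.8, 4.10 and 22.0 normalized counts in WT1 to WT4 and 0 in dyW1, 1.14 in dyW2 and 0.977 in the library labelled dyW3. The groups did not overlap, and the log2 fold change was -3.04 with a standard error of 0.793 (adjusted *P*-value = 0.0178, limma). These values stood for 4, 4, 2 and 7 reads in WT and 0, 9 and 2 in dyW. The receptor genes taken as silent had a median of 0.70 to 2.65 reads per kb in the WT libraries, 0 in dyW1 and dyW2 and 1.94 in the library labelled dyW3. The pooled WT reads of *Eef1a2* were 0.172 times what this level gives over the length of its transcript, so the gene was not detected above it in WT. Those of *Eif4g2* were 7.83 times and those of *Eef1a1* 824 times that level. With means of 14.6 in WT and 0.705 in dyW, *Eef1a2* passed the minimum mean of 5 only through WT, and no lower level of the gene in dyW is read from this test. The call was lost without WT4 (adjusted *P*-value = 0.0555, limma) and without dyW1 (0.0516).

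Of the enzymes that modify the elongation factors, 0 of 5 passed. The highest was *Eef1akmt2*, a lysine methyltransferase of eEF1A, with a log2 fold change of 1.24 (adjusted *P*-value = 0.296, limma), and the lowest *Eef2kmt*, which methylates eEF2, at -1.65 (adjusted *P*-value = 0.121, limma), with 37.8 to 64.0 normalized counts in WT and 5.44 to 33.6 in dyW. The pooled WT reads of *Eef2kmt* were 1.23 times the level of the receptor genes, and its fold change was 1.17 after that level was subtracted.

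The mRNAs of elongation factors and some initiation factors begin with a pyrimidine tract (TOP mRNAs), which places their translation under TOR. The 12 members taken as TOP mRNAs were *Eef1a1*, *Eef1a2*, *Eef1b2*, *Eef1d*, *Eef1g*, *Eef2*, *Eif2s3x*, *Eif3e*, *Eif3f*, *Eif3h*, *Eif3k* and *Eif4b*. Of these, 7 had a positive and 5 a negative fold change, 1 was higher (*Eif4b*) and 1 lower (*Eef1a2*, not above the silent level in WT), beside 1.01% and 29.6% of all tested genes, and the median was 0.68, against 0.52 for the 48 other tested members.

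The 63 members together were also set against the rest of each library. Their summed normalized counts were 16248 ± 6597 in the 4 WT libraries and 19091 ± 4185 in the 3 dyW libraries (SD), a difference within the spread between libraries (exact two-sided permutation test over the 35 splits, p = 0.514, adjusted over 4 such measures 0.514). As a share of all normalized counts they were 0.394% ± 0.109 in WT, from 0.313% to 0.549%, and 1.05% ± 0.0353 in dyW, from 1.01% to 1.07%, without overlap (exact permutation p = 0.0571, the smallest that 4 against 3 libraries allow, adjusted 0.114). Without *Eef1a1* the shares were 0.236% ± 0.107 and 0.827% ± 0.120 (exact permutation p = 0.0571, adjusted 0.114). The total moved with them: the 10 most abundant genes took 43.3% to 77.3% of all counts in WT and 16.4% to 37.6% in dyW, and their part in the share of the members was not tested.

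**Figure D4:**
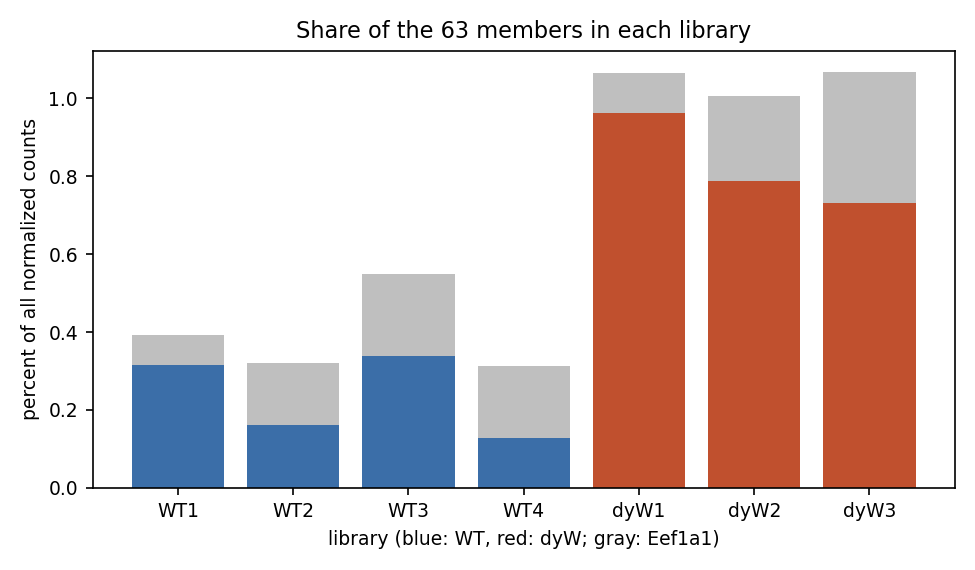
Share of all normalized counts taken by the 63 members in each library, in percent, with *Eef1a1* in gray and the other 62 members in blue (WT) or red (dyW). The 3 dyW libraries lie between 1.01% and 1.07%, and the 4 WT libraries between 0.313% and 0.549%.

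Genes that work with these factors were compared in the same fit. Of 42 tested, 3 were higher and 1 lower at an adjusted *P*-value under 0.05, beside 1.01% and 29.6% of all tested genes, and 4.01% and 5.09% of those averaging 50 or more normalized counts in the same fit. The 3 higher genes belong to the 12 listed for poly(A) binding, scanning, termination and recycling, of which 10 had a positive fold change. *Pabpc1*, the poly(A)-binding protein that contacts eIF4G, was at 295.4 to 495.8 in WT and 1078 to 1407 in dyW (log2 fold change 1.72, SE 0.416, adjusted *P*-value = 0.0126, limma). *Ddx3x*, an X-linked helicase that aids scanning, was at 47.2 to 181.3 in WT and 476.1 to 1541 in dyW (log2 fold change 2.82, SE 0.662, adjusted *P*-value = 0.0112, limma). In WT1 to WT4 it was at 181.3, 105.2, 155.9 and 47.2, all below the lowest dyW library. Sex-linked genes moved with the groups as well: *Xist* was at most 297.4 in WT and 460.7 to 4132 in dyW, and *Kdm5d* had 2 to 35 reads in WT, 0 in dyW1 and dyW2 and 4 in the library labelled dyW3. Their part in the *Ddx3x* difference was not tested. *Etf1*, the factor that reads stop codons, was at 67.7 to 94.4 in WT and 215.8 to 345.1 in dyW (log2 fold change 1.71, SE 0.502, adjusted *P*-value = 0.0299, limma). None of the 3 passed with a minimum mean of 50, where their adjusted *P*-values were 0.111, 0.101 and 0.109 (*Pabpc1*, *Ddx3x* and *Etf1*, limma). Nor did they pass after quantile normalization (0.395, 0.173 and 0.457), after the subtraction (0.126, 0.079 and 0.123) or with the replicate block (0.0643, 0.0614 and 0.137). Among the fits without 1 library, *Ddx3x* passed in all 7, *Pabpc1* did not pass without dyW2 (0.051), and *Etf1* did not pass without WT2, WT4, dyW1 or dyW2 (0.0567 to 0.0744).

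The gene called lower was *Mlst8*, a subunit of the TOR complexes, at 10.7 to 32.4 in WT and 0 to 0.877 in dyW (log2 fold change -3.82, SE 0.707, adjusted *P*-value = 0.00461, limma). Its pooled WT reads were 1.04 times the level of the receptor genes, so it was not clearly above that level in WT, and it passed the minimum mean only through WT (means of 20.4 and 0.455). No lower level in dyW is read from this test. Of the 12 genes of TOR and cap signalling, 5 had a positive and 7 a negative fold change. Of the 10 eIF2 kinases and stress response genes 0 passed, with 6 positive values, and of the 8 enzymes that make hypusine and diphthamide, the modified residues of eIF5A and eEF2, 0 passed, with 3 positive values.

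**Figure D5:**
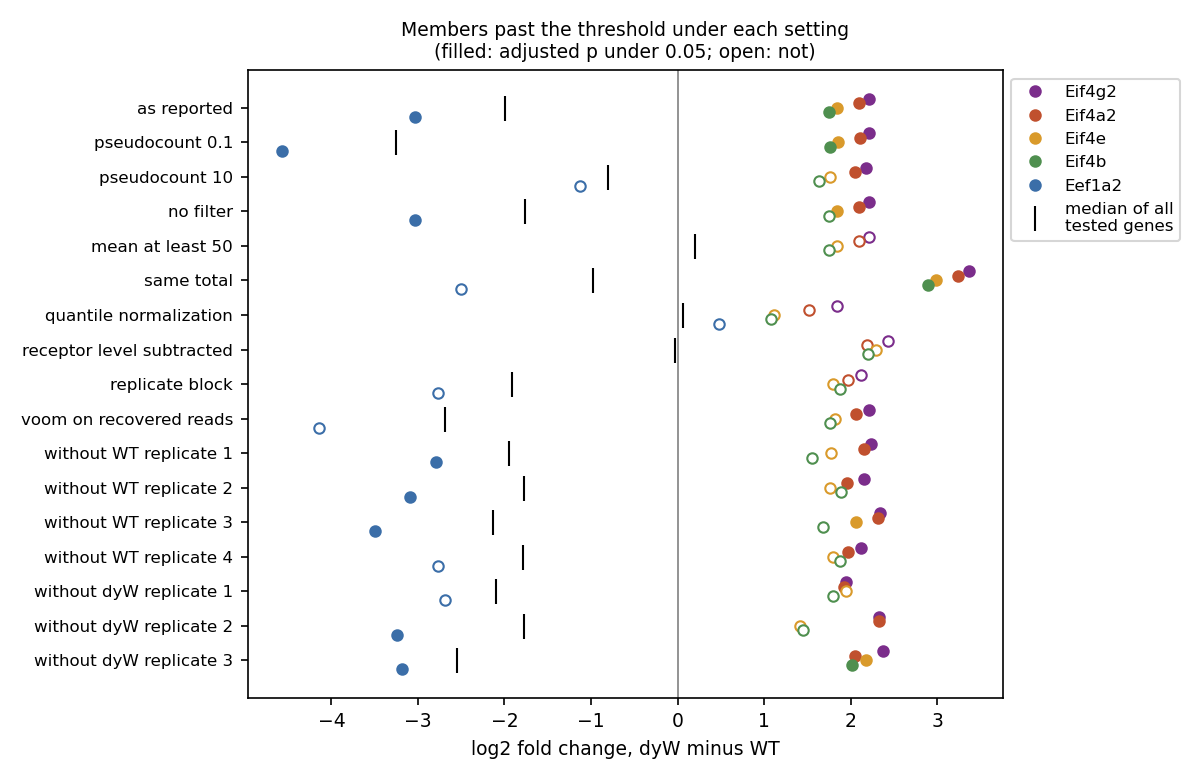
Log2 fold change (dyW minus WT, horizontal axis) of the 5 members past the threshold under each way of processing the data, filled where the adjusted *P*-value was under 0.05, with the median of all tested genes as a vertical tick. The 4 raised members stay on the positive side in every setting shown, while *Eef1a2* lies at 0.48 after quantile normalization and has no value in the 2 settings where it was not tested.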

How the data were processed

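Muscle fiber RNA of 4 WT and 3 dyW fetuses, grouped by the genotype in the labels, had been made into SMART-seq2 and Nextera XT libraries, 1 per fetus. The authors used Cutadapt for trimming and RNA STAR for alignment (GRCm39), counted uniquely mapped reads per gene with FeatureCounts and normalized them with DESeq2. The deposited values, written with decimal commas and handled under the unit name other, are these counts divided by 1 size factor per library. Tool versions, annotation release and strand setting are not given in the sources used here. The deposited fold changes and *P*-values were not used. Whole reads were recovered from the step of each library: 100% of values came out whole within 0.1 read.

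In R 4.3.3, limma 3.58.1 was run on log2(normalized count + 1) of genes averaging 5 or more, with a trended eBayes step after lmFit, over all 7 libraries, with Benjamini-Hochberg adjustment over 25791 genes. A fold change on this scale understates that of low genes. Sums and shares were tested with exact two-sided permutations. A count of 0 was taken to allow up to 3 reads, for counting error only. Reads per library ranged from 470804 to 18297106, so WT values are the less precise. Coordinates, canonical transcript lengths and start codons came from GENCODE mouse release 39, which holds all 63 members and 99.2% of genes. Members, lists and named genes were chosen with earlier results of these data known. Named were members past an adjusted *P*-value of 0.05, the 5 most abundant per kb, the extremes of each role list with at least 3 tested members, and a fixed list of main factors; others are stated as chosen after their values were seen. Tables, permutation tests and plots used scipy 1.17.1, pandas 2.3.3, matplotlib 3.10.9 and numpy 2.4.6 under Python 3.11.15, and the fit was tested on simulated data. Genes with near-identical pseudogenes, such as *Eef1a1*, *Eif4a1*, *Eif5a* and *Eif3j1*, are uncertain because uniquely mapped reads were counted. No 2 libraries held the same values.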

Additional observations from a re-analysis of the deposited data

Results flagged for a closer look

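For each named member, *Lama2* and the share of the members in all counts, the highest or lowest of the 4 WT values was set against the others. In 10 of 31 such groups it stood apart by Dixon's criterion. The level of about 1 in 20 for this criterion holds for independent groups of normally distributed values. The groups here share the same 4 libraries, so the 10 are not set against chance. Of these, 8 were values of WT3. It was far above the other WT libraries for *Eef1g* (1245 normalized counts), *Eif1* (447.2), *Eif3k* (264.6), *Eif4a1* (1586), *Eif4e* (164.1), *Eif4ebp1* (336.4) and *Eif5a* (3436), and far below them for *Eif2b3* (86.2). WT2 stood apart for *Eif3j1* (27.0, from 10 reads) and WT1 for *Eif4g1* (362.5). WT3 was also the library with the most reads among the WT libraries, 2220813, and the highest sum of myofiber markers, 67705. Whether these go together was not tested.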

How the results depend on the processing

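The results were recomputed with a pseudocount of 0.1 or 10, without the filter or with a minimum mean of 50, with libraries set to the same total, after quantile normalization, after subtracting the level of the receptor genes, with a replicate block, and without each library. The voom fit on recovered reads was chosen after seeing the data. The edgeR and DESeq2 tests that had been intended were not run. The cause of the shifts below was not tested, except that a minimum mean of 50 and the subtraction left *Eef1a2* untested.

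Members higher at an adjusted *P*-value under 0.05 (4) numbered 2 with a pseudocount of 10 and with voom (where 184 and 29 of 25791 genes were higher), 17 at the same total (where 1140 of 24987 genes were higher), and 0 with a minimum mean of 50, quantile normalization or the subtraction. All genes higher under these last 3 numbered 0 of 6111, 17 of 25791 and 11 of 18622. At an unadjusted *P*-value under 0.05 (limma), 10, 5 and 13 members were higher there, beside 717, 2216 and 1847 of all genes. Lower members (1) numbered 0 with a minimum mean of 50, the same total, quantile normalization and the subtraction. The gene also changed where the count stayed at 1. It was *Eif2d* with a pseudocount of 10, *Eif2s3y* with voom, *Eif2c5* without WT4 and *Eef2kmt* without dyW1, and *Eef1a2* did not pass in these settings. By the strict rule, 2 members were higher with a pseudocount of 0.1, and 0 with a pseudocount of 10, a minimum mean of 50, the same total, quantile normalization and the subtraction. Without each library in turn, strict calls ran from 0 to 2 in both directions, lower members from 1 to 2 and higher members from 2 to 9, with 9 without the library labelled dyW3 and 2 without WT1, WT2, WT4 or dyW2. Over all genes, strict calls ran there from 0 to 6698 lower and from 0 to 25 higher. At an adjusted *P*-value under 0.05 (limma) they ran from 5357 to 10741 lower and from 78 to 381 higher. Members with every WT library higher (3) numbered 1 at the same total and 1 after the subtraction, and 3 to 7 without 1 library, with 7 without dyW2. Members with every dyW library higher (8) numbered 28 at the same total and 9 to 21 without 1 library, with 21 without dyW1, 15 without WT3 and 13 without the library labelled dyW3. How many of all genes were without overlap under these settings was not counted, so nothing about the members is read from these numbers.

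The replicate block gave 0 members in either direction at an adjusted *P*-value under 0.05 and 0 strict calls, with 0 genes of 25791 higher after adjustment. At an unadjusted *P*-value under 0.05 (limma), 6 members were higher and 2 lower, beside 300 and 8543 of the 25791 genes. The numbers only name the libraries: deviations of same-numbered libraries correlated at 0.147, -0.0494 and -0.0880 over genes, and libraries 1 alone correlated best with each other.

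The distance between the median of the members and that of all tested genes (2.51) was 3.78 and 1.35 with pseudocounts of 0.1 and 10, 0.48 with a minimum mean of 50, 0.46 after quantile normalization and 1.21 after the subtraction, and 2.02 to 3.20 without 1 library. *Lama2* (-2.58) was -3.74 with voom and -4.09 to -1.72 without 1 library, with -4.09 without the library labelled dyW3. The 4 raised members kept their sign in all 16 alternatives. *Eif4g2* and *Eif4a2* passed an adjusted *P*-value of 0.05 in 12 of the 16 (limma, 0.0014 to 0.19 and 0.00475 to 0.261), *Eif4e* in 5 (0.0193 to 0.42), *Eif4b* in 3 (0.0193 to 0.476) and *Eef1a2* in 7 of 14 (0.00727 to 0.836). Of the genes that work with them, *Ddx3x* passed in 12 of 16, *Pabpc1* in 10 and *Etf1* in 6.

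Among the named members, signs turned in *Eef1a2* and otherwise in members that had not passed. At the same total *Eef1a1* was 0.40, *Eef2* 0.38, *Eef1g* 0.97, *Eif2b3* 0.017, *Eif3k* 1.04, *Eif4g1* 0.56 and *Eif5a* 0.87. After quantile normalization *Eef1a2* was 0.48, *Eif1* -0.13, *Eif2s3y* 0.0094 and *Eif4ebp1* -0.089. *Eef2kmt* was 1.17 after the subtraction, and with voom *Eif1b* was -0.15, *Eif4ebp1* -0.049 and *Eif4g1* 0.12. Without 1 library, *Eef1g* ran from -0.62 to 0.57, *Eif1b* from -0.22 to 0.72, *Eif3k* from -0.48 to 0.48, *Eif4ebp1* from -0.43 to 0.78, *Eif4ebp2* from -0.66 to 0.85, *Eif4g1* from -1.59 to 0.72 and *Eif5a* from -0.63 to 0.44.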
